A study of Mus musculus with 12 samples.

Results

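The melanin-concentrating hormone (MCH) and orexin system was read from the hypothalamus as 5 genes, chosen by symbol: the peptide precursor genes *Pmch* and *Hcrt* and the receptor genes *Mchr1*, *Hcrtr1* and *Hcrtr2*. All 5 were among the 16855 genes listed for chow and the 16744 genes listed for the high-fat diet (HFD). Hypothalamus RNA came from 12 male mice on a C57BL/6J background in 4 groups of 3. These were WT mice on chow, *Gpr75-/-* mice on chow, WT mice on a HFD and *Gpr75-/-* mice on a HFD, with all groups taken at 8 weeks of age and the HFD fed for the last 2 weeks. The *Gpr75-/-* allele was made in the germline with CRISPR/Cas9 and stops translation near the start of the protein in every cell and not in MCH or orexin neurons alone. The mRNA can still be made from this allele. *Gpr75* was at 16.7 CPM in WT and 24.6 CPM in *Gpr75-/-* mice on chow, and at 19.9 and 18.4 CPM on the HFD, which does not check the genotype labels.

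MCH is a peptide made by neurons of the lateral hypothalamus and zona incerta. It promotes feeding, and in rodents it acts through 1 receptor, MCHR1, a G protein-coupled receptor found on primary cilia. Orexin A and orexin B are cut from the single precursor that *Hcrt* encodes, in a separate set of lateral hypothalamic neurons. They promote wakefulness and feeding, and loss of these neurons causes narcolepsy. HCRTR1 prefers orexin A, while HCRTR2 binds both orexins, and histamine neurons are among the cells that carry HCRTR2. Precursor mRNA is made in the peptide neurons and receptor mRNA in cells that respond. Values from whole tissue do not show which cells held either.

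*Pmch* (ENSMUSG00000035383) lies at chr10:87926934-87928237 and *Hcrt* (ENSMUSG00000045471) at chr11:100651895-100653757. The receptor genes lie at chr15:81119700-81123165 for *Mchr1* (ENSMUSG00000050164), chr4:130024010-130033152 for *Hcrtr1* (ENSMUSG00000028778) and chr9:76133162-76231138 for *Hcrtr2* (ENSMUSG00000032360). These are whole gene spans in the deposited coordinates, build GRCm39, and each gene is annotated as protein-coding. In both tables, 0 other listed genes overlapped any of the 5 spans.

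The 100 bases before the start of *Pmch* and of *Hcrt* are shown because these are the members with high levels and with the higher ratios on the HFD. The sequences are from RefSeq, build GRCm38.p6, on the strand of the gene, at chr10:88090972-88091071 (plus strand) for *Pmch* and chr11:100762932-100763031 (minus strand) for *Hcrt*. Capitals mark TATAAA, the core of a TATA box, a promoter element found a short way before the start of some highly transcribed genes.
Pmch: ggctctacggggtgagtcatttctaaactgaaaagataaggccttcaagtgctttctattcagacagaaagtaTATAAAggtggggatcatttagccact
Hcrt: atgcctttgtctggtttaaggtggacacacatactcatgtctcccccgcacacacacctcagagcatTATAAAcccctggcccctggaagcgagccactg
The first base of the motif was 27 bases before the start of *Pmch* and 33 bases before that of *Hcrt*. The same letters, searched on both strands (TATAAA or TTTATA), were in 0 of the windows of *Mchr1* (1 window), *Hcrtr1* (3 windows) and *Hcrtr2* (1 window). Among all 32851 RefSeq promoter windows of the same length, 1827 (5.56%) held them. A match is a description of these letters and not a mapped binding site.

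The deposited values were means over the mice of a group, on a log scale, from which a level in CPM, the reads of a gene scaled to the same total in each library, was read back. They were given to 2 decimals, so each level has bounds from rounding. The tables hold no values of single mice, and the errors and p-values of the authors' own comparison were left aside, so no spread between mice, SD or test is given for any member and each ratio of group means below is without a replicate check. The interval printed with a ratio joins the rounding bounds to a 95% interval for counting error. It leaves out the variation between mice, and reads without molecular identifiers are not independent molecules, so a ratio outside it is not thereby an effect of genotype. An average mouse had 18280462 normalized counts over all genes in the chow table and 19420111 in the HFD table. Levels on the 2 diets came from tables normalized separately and are set side by side.

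*Pmch*, the MCH precursor gene, was among the more abundant transcripts of this tissue, in place 620 of 16855 genes by mean normalized count on chow and 584 of 16744 on the HFD. On chow the authors' mean was 245 CPM in WT mice and 256 CPM in *Gpr75-/-* mice. On the HFD it was 225 CPM in WT mice and 292 CPM in *Gpr75-/-* mice. Set side by side, the HFD-fed *Gpr75-/-* group had the highest of the 4 means and the HFD-fed WT group the lowest. *Hcrt*, the orexin precursor gene, had the same order of groups. It was at 114 CPM in WT and 123 CPM in *Gpr75-/-* mice on chow, and at 106 CPM and 133 CPM on the HFD.

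*Mchr1*, the MCH receptor gene, was at 10.8 CPM in WT and 9.56 CPM in *Gpr75-/-* mice on chow, and at 10.4 CPM and 11.3 CPM on the HFD. It was the only member whose *Gpr75-/-* mean was below the WT mean on either diet, on chow. *Hcrtr1*, the receptor gene that prefers orexin A, was at 7.70 CPM and 7.85 CPM on chow, and at 7.56 CPM and 8.48 CPM on the HFD. *Hcrtr2*, whose product binds both orexins, was at 14.8 CPM and 15.5 CPM on chow, and at 16.7 CPM and 17.1 CPM on the HFD. The receptor genes had mean normalized counts of 142 to 332, against 2224 to 5138 for the precursors, so counting error was larger for them.

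**Figure D1:**
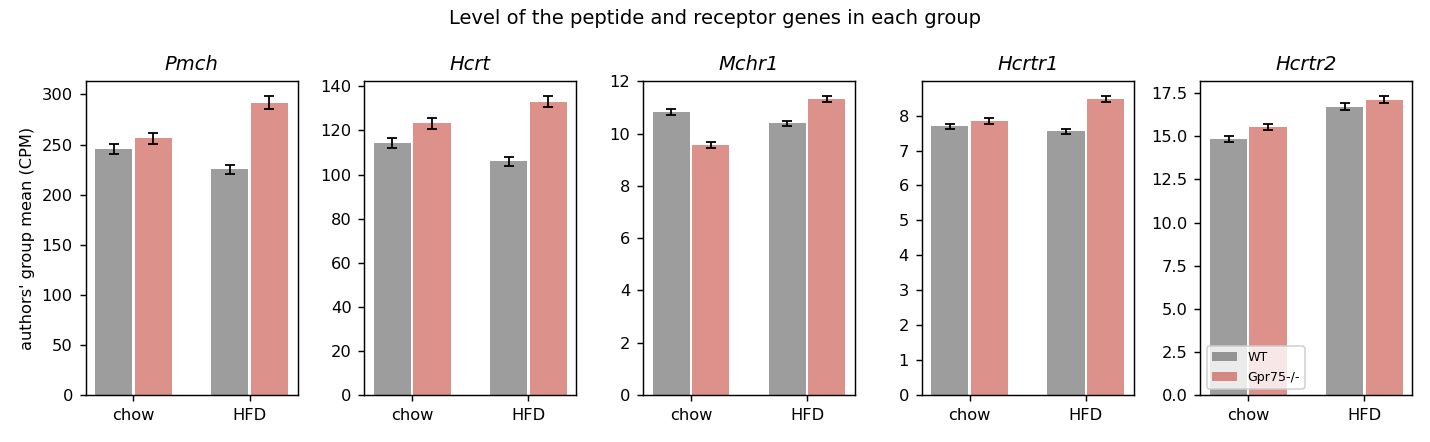
Bars show the authors' mean of each group in CPM, on an axis from 0 in each panel, with WT in grey and Gpr75-/- in red, and the error bars are the bounds from rounding of the deposited values, not a spread between mice. The Gpr75-/- bar on the HFD stands above the WT bar for Pmch (292 against 225 CPM) and Hcrt (133 against 106 CPM), and the chow bars of Mchr1 are in the opposite order (10.8 in WT, 9.56 in Gpr75-/-).

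Levels of different genes were compared as CPM per kilobase of exon. The order was the same in every group: *Pmch* first (301 to 390 CPM per kilobase), then *Hcrt* (141 to 178), *Mchr1* (4.37 to 5.17), *Hcrtr1* (2.90 to 3.25) and *Hcrtr2* (2.41 to 2.78). With the longest transcript as the length, *Hcrtr2* (3.94 to 4.55) stood above *Hcrtr1* (3.10 to 3.48), so the order of the orexin receptor genes depends on the length used. The ratio of the precursors, *Pmch* over *Hcrt* per length, was 2.15 in WT and 2.08 in *Gpr75-/-* mice on chow, and 2.13 and 2.19 on the HFD. *Pmch* stood 66.1-fold above its receptor gene *Mchr1* per length in WT mice on chow and 78.3-fold in *Gpr75-/-* mice, and 63.4-fold and 75.4-fold on the HFD. *Hcrt* over *Hcrtr1* was 51.6 and 54.7 on chow and 48.8 and 54.6 on the HFD. *Hcrt* over *Hcrtr2* was 63.3 and 65.2 on chow and 52.2 and 63.9 on the HFD. Ratios that involve *Hcrt* depend on the length, while that of *Pmch* over *Mchr1* was the same with both lengths. With the longest transcript, in WT mice on chow, *Pmch* over *Hcrt* was 1.68, *Hcrt* over *Hcrtr1* 61.7 and *Hcrt* over *Hcrtr2* 49.4, with the last pair in the opposite order. They are ratios of mRNA levels in whole tissue, with no spread between mice.

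On the HFD, the group mean of both precursor genes was higher in *Gpr75-/-* than in WT mice. *Pmch* was 1.30-fold the WT mean, a log2 ratio of 0.37 (0.28 to 0.47 with rounding and counting error), or 29.6% above it. *Hcrt* was 1.26-fold the WT mean, a log2 ratio of 0.33 (0.23 to 0.43), or 25.5% above it. Among the 4688 genes with a mean of at least 1000 normalized counts, 2 had a ratio as high as that of *Pmch* and 4 as high as that of *Hcrt*, with the gene itself counted. Their 5th and 95th percentiles were -0.15 and 0.11. Among the 12509 genes with a mean of at least 100, the counts were 45 (0.360%) and 79 (0.632%). The members had been chosen with earlier results of these data known, so these places are a description. In whole tissue, fewer (or more) cells of a type and less (or more) RNA per cell cannot be told apart.

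The receptor genes had smaller ratios on the HFD. *Hcrtr1* had a log2 ratio of 0.17 (-0.05 to 0.38), *Mchr1* of 0.12 (-0.07 to 0.31) and *Hcrtr2* of 0.04 (-0.13 to 0.20). All 3 intervals include 0 from rounding and counting alone. Past a log2 ratio of 0.2, the size used to count genes here, were 2 of 5 members, *Pmch* and *Hcrt*, both higher. Of all genes with a ratio on the HFD, 7.99% were higher and 6.72% were lower by more than this. The median ratio of the 5 members was 0.17, and that of all genes with a mean of at least 100 was 0.00.

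On chow, 0 of 5 members were past a log2 ratio of 0.2, where 9.09% of all genes were higher and 9.01% lower by more than this. *Pmch* had a log2 ratio of 0.06 (-0.03 to 0.16) and *Hcrt* of 0.11 (0.01 to 0.21). Both lay between the 5th and 95th percentiles of genes with a mean of at least 1000 on chow, -0.16 and 0.14. *Mchr1* had the only ratio below 0, at -0.18 (-0.38 to 0.02), and 6.28% of genes with a mean of at least 100 had a ratio as low. *Hcrtr1* was at 0.03 (-0.19 to 0.25) and *Hcrtr2* at 0.07 (-0.10 to 0.24). The median of the 5 members was 0.06, against 0.00 for all genes with a mean of at least 100.

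**Figure D2:**
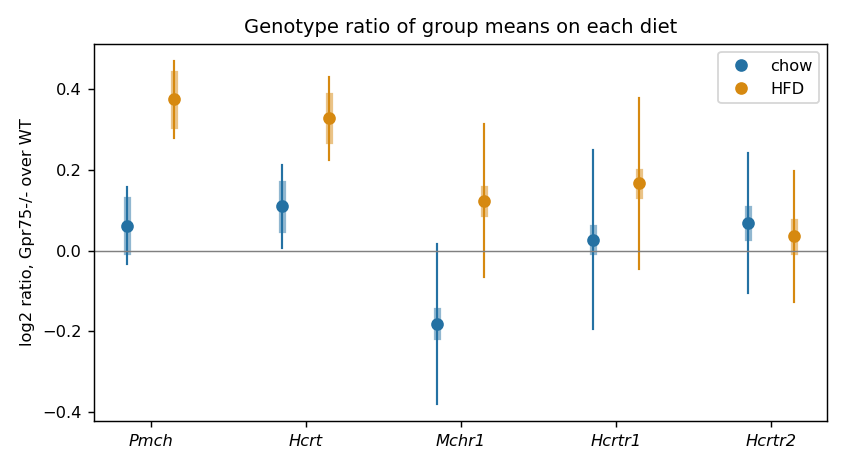
Points are log2 ratios of the Gpr75-/- to the WT group mean for each gene, chow in blue and HFD in orange. Thick bars are the rounding bounds and thin bars add the 95% counting interval, and neither holds the variation between mice. The HFD points of Pmch (0.37) and Hcrt (0.33) stand above their chow points (0.06 and 0.11) with bars that do not meet, and the bars of the receptor genes on the HFD cross 0.

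Each diet had its own WT mice, so the ratio on the HFD and the ratio on chow share no control group. The HFD ratio minus the chow ratio was 0.31 on the log2 scale for *Pmch* (0.14 to 0.48 with rounding and counting error), 0.30 for *Mchr1* (0.01 to 0.60) and 0.22 for *Hcrt* (0.04 to 0.40). It was 0.14 for *Hcrtr1* (-0.18 to 0.46) and -0.03 for *Hcrtr2* (-0.29 to 0.22). Of 12331 genes with a mean of at least 100 on both diets, 2.17% had a difference as high as that of *Pmch*, 2.38% as high as that of *Mchr1*, 6.17% as high as that of *Hcrt*, 15.3% as high as that of *Hcrtr1* and 60.7% as high as that of *Hcrtr2*. Whether the genotype ratio differed between the diets beyond the spread between mice was not tested.

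**Figure D3:**
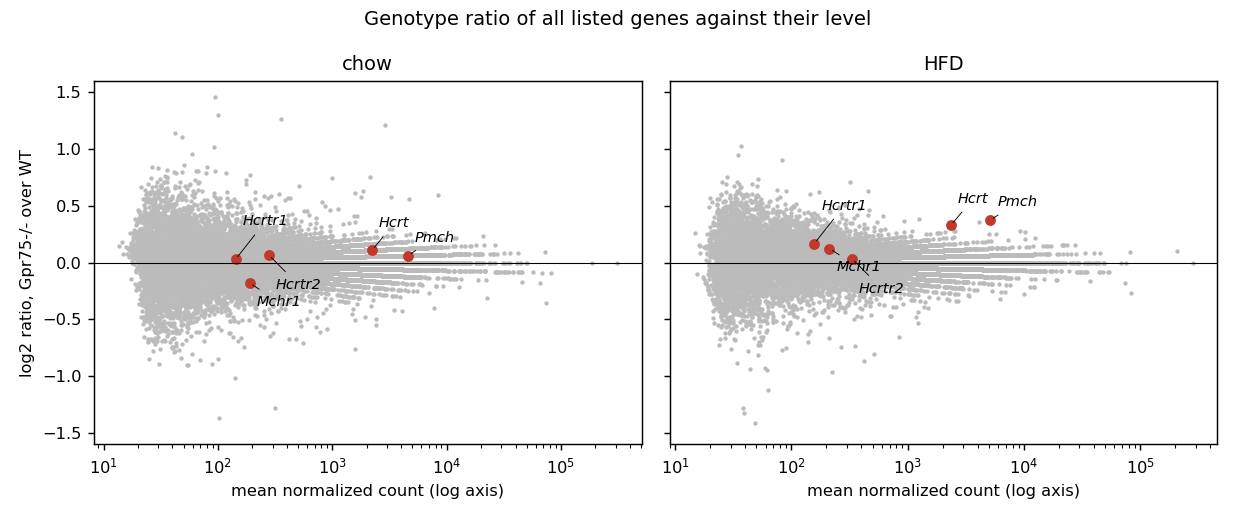
Each grey point is a listed gene with a group mean above 0, placed by its mean normalized count (log axis) and its log2 ratio of Gpr75-/- to WT, for chow on the left and the HFD on the right, with the 5 genes of the MCH and orexin system in red. On the HFD, Pmch and Hcrt lie above the band of genes of like abundance, and on chow all 5 lie within 0.2 of 0.

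The precursors were among the genes nearest to each other over the 2 ratios. Among 4424 genes with a mean of at least 1000 on both diets, the gene at the smallest distance from *Pmch* was *Hcrt* (distance 0.0660 on the log2 scale), followed by *Oxt*, the oxytocin gene (0.0964), and *Ndn*, the necdin gene (0.117). From *Hcrt*, the nearest after *Pmch* were *Oxt* (0.0745) and *Vgf* (0.0803), a neuropeptide precursor gene. *Oxt* had log2 ratios of 0.05 on chow and 0.28 on the HFD, *Ndn* of 0.00 and 0.27, and *Vgf* of 0.13 and 0.25. With 2 ratios per gene the likeness rests on 4 group means. Few genes of this abundance had such HFD ratios. Of 4688 genes, 2 were as high as *Pmch* and 4 as high as *Hcrt*, with the gene itself counted. The likeness of the precursors thus largely restates their HFD ratios. Rounding alone left the chow ratio of *Pmch* between 0.00 and 0.12 and its HFD ratio between 0.31 and 0.44, bounds wider than the gaps between these distances, so the order among the named genes is not resolved.

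Other genes of MCH and orexin neurons were past a log2 ratio of 0.2 in numbers near those that the share over all genes gives. That share, against which the counts of every list below are to be read, was 9.09% higher and 9.01% lower on chow, and 7.99% higher and 6.72% lower on the HFD. Of the 16 genes on this list, 14 were listed on chow and 15 on the HFD, and *Foxa2* in neither. On chow 1 was higher and 1 lower past 0.2, with a median log2 ratio of -0.08. On the HFD 2 were higher and 1 lower, with a median of 0.04. *Lhx9*, a transcription factor gene of the orexin lineage, had log2 ratios of 0.27 (0.12 to 0.42) on chow and -0.36 (-0.51 to -0.20) on the HFD, opposite in sign on the HFD to *Hcrt*. *Nptx1*, which encodes a neuronal pentraxin, was at 0.16 (0.06 to 0.27) and 0.22 (0.12 to 0.32), and *Nkx2-1*, a hypothalamic patterning gene, at -0.20 (-0.34 to -0.06) and 0.00. *Qrfp*, a peptide gene of some orexin neurons, was listed on the HFD alone, with a mean of 25.9 normalized counts and a ratio of 0.54, whose interval began at 0.07. *Cartpt*, the CART peptide gene of many MCH neurons, was at -0.14 (-0.26 to -0.03) on chow and 0.20 (0.09 to 0.31) on the HFD. *Pdyn*, the dynorphin gene that orexin neurons express, was at -0.13 (-0.26 to -0.00) and 0.13 (0.01 to 0.26).

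Among 13 other peptides and receptors of the lateral hypothalamus, 0 were higher and 1 was lower past 0.2 on chow, with a median log2 ratio of -0.05. On the HFD 4 were higher and 0 lower, with a median of 0.11. There 11 of 13 were above 0, as were 7858 of all 16679 genes with a ratio. On chow 5 of the 13 were above 0 and 7 below. *Penk*, the enkephalin precursor gene, was the lower one on chow, at -0.50 (-0.60 to -0.40), and stood at 0.11 (0.01 to 0.21) on the HFD. The higher ones on the HFD were *Lepr*, the leptin receptor gene (0.32, interval 0.00 to 0.64), *Tac1*, the substance P precursor gene (0.26, 0.16 to 0.37), *Trh*, the thyrotropin-releasing hormone gene (0.25, 0.14 to 0.36), and *Gal*, the galanin gene (0.22, 0.10 to 0.35). On chow they had log2 ratios of 0.00, -0.10, 0.20 and 0.04 in the same order.

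The 12 genes of prohormone processing, whose products cut, modify and store peptides such as MCH and the orexins, had a median log2 ratio of 0.00 on chow and 0.06 on the HFD. Past 0.2 were 0 genes on chow and 1 on the HFD, *Vgf*, which was higher (0.25, 0.15 to 0.34), and 1 of 12 is near the 7.99% of all genes. Of 20 genes for G proteins and effectors of the MCH and orexin receptors, 19 were listed on chow and 18 on the HFD, and *Gna14* in neither. Their median log2 ratio was -0.05 on chow and -0.04 on the HFD. On chow 1 was higher, *Gnai3* (0.23, 0.11 to 0.35), and 3 were lower, the inositol trisphosphate receptor gene *Itpr1* (-0.26, -0.37 to -0.15) and the cation channel genes *Trpc5* (-0.27, -0.44 to -0.09) and *Trpc6* (-0.25, -0.54 to 0.05). On the HFD these were at -0.05, -0.10, -0.12 and -0.17 in the same order. Past 0.2 there were *Itpr3* (0.44, 0.12 to 0.76), which had a mean of 58.3 normalized counts, and the protein kinase C gene *Prkca* (-0.24, -0.35 to -0.12). *Gnaq*, which encodes the G protein alpha subunit through which the orexin receptors raise calcium, was at 0.00 (-0.10 to 0.10) on chow and 0.06 (-0.03 to 0.16) on the HFD.

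Of 8 genes that mark neurons known to carry these receptors, 4 were listed and *Slc6a2*, *Dbh*, *Tph2* and *Slc6a4*, of noradrenaline and serotonin neurons of the brainstem, in neither table. *Hdc*, which makes histamine in the tuberomammillary neurons that carry HCRTR2, was at 0.16 (0.02 to 0.30) on chow and 0.41 (0.28 to 0.55) on the HFD, against 0.07 and 0.04 for *Hcrtr2* itself. *Slc6a3*, the dopamine transporter gene, was at -1.29 (-1.45 to -1.12) on chow and -0.87 (-1.02 to -0.72) on the HFD. *Chat*, the acetylcholine synthesis gene, was at -0.40 (-0.59 to -0.22) and -0.44 (-0.63 to -0.24). *Th*, the dopamine synthesis gene, was at -0.32 (-0.46 to -0.18) and -0.08 (-0.22 to 0.05). These genes thus stood in both directions, with 0 higher and 3 lower on chow and 1 higher and 2 lower on the HFD, and medians of -0.36 and -0.26.

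**Figure D4:**
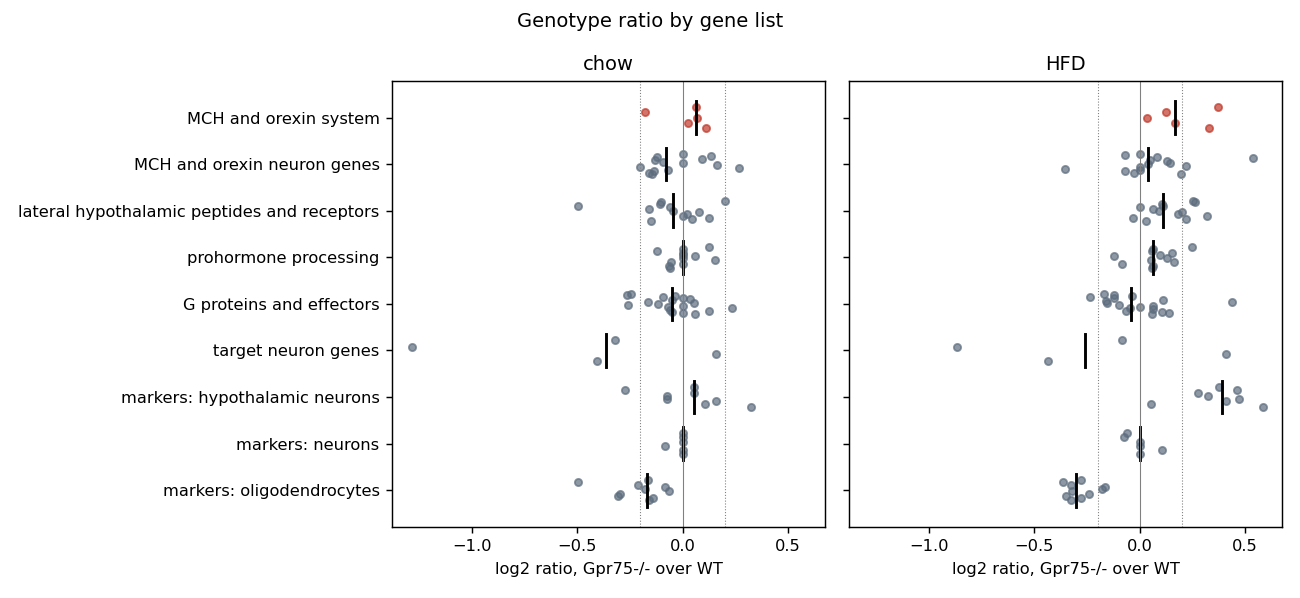
Each point is the log2 ratio of Gpr75-/- to WT of 1 gene, in rows by gene list, for chow on the left and the HFD on the right, on the same axis. Black bars are medians and dotted lines mark ratios of -0.2 and 0.2. On the HFD the hypothalamic neuron markers (median 0.39) lie to the right and the oligodendrocyte markers (median -0.30) to the left of 0, and 2 of the 5 red points pass 0.2.

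Markers of other neurons of the hypothalamus moved with *Pmch* and *Hcrt* on the HFD. Of 8 such markers, 7 were higher past 0.2, where 7.99% of all genes were. All 8 were above 0, as were 7858 of all 16679 genes with a ratio. Their median log2 ratio was 0.39, and their summed level was 306 CPM in WT and 362 CPM in *Gpr75-/-* mice. The ratios included *Pomc* (0.46), *Agrp* (0.58) and *Npy* (0.47), feeding peptide genes of the arcuate nucleus, and *Oxt* (0.28) and *Sim1* (0.38), of the paraventricular nucleus. *Avp*, the vasopressin gene, was the exception at 0.05. *Hdc* is on this list and on that of target neurons. On chow 1 marker was higher, *Agrp* (0.32, -0.00 to 0.65), and 1 lower, *Pomc* (-0.28, -0.44 to -0.11), opposite in sign to its HFD ratio. There 5 of the 8 were above 0 and 3 below, with a median of 0.05 and summed levels of 280 and 291 CPM. The 6 general neuron markers had 0 genes past 0.2 on either diet and a median of 0.00 on each, with a summed level of 4704 CPM in WT and 4646 CPM in *Gpr75-/-* mice on the HFD.

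Oligodendrocyte markers moved the other way. On the HFD 8 of 10 were lower past 0.2, where 6.72% of all genes were, and none higher, with a median of -0.30 and summed levels of 7640 CPM in WT and 6663 CPM in *Gpr75-/-* mice. On chow 4 of 10 were lower (9.01% of all genes), with a median of -0.17 and summed levels of 7039 and 6343 CPM. Of 6 choroid plexus markers, 5 had a ratio on chow and all 5 were higher past 0.2 (9.09% of all genes), with a median of 1.11 and summed levels of 39.0 CPM in WT and 64.9 CPM in *Gpr75-/-* mice. The remaining one, *Kcne2*, was listed at 0 in WT mice on chow. The level of *Ttr* on chow is a mean of logs far below its mean count, and those of *Kl* and *Folr1* are also below theirs. The summed levels on chow are thus lower than the mean counts of these markers would give. The median on chow is the ratio of *Folr1*, which was at only 1.08 CPM in WT mice. On the HFD 4 were listed, 0 higher and 2 lower, with summed levels of 35.2 and 34.2 CPM. The part of these markers in the ratios of *Pmch*, *Hcrt* and the receptor genes was not tested. Astrocyte, microglia and endothelial markers had medians from -0.09 to 0.03 on either diet, with 1 microglia marker past 0.2, lower on chow. The markers of hypothalamic neurons were all listed above 0 in every group, as were the general neuron markers.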

How the data were processed

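The authors made mRNA libraries with a SMART-Seq kit from the hypothalamus of 12 mice, sequenced them in pairs of reads on a NovaSeq instrument, and processed them on the Astrocyte platform. The submitters' processing notes name STAR, featureCounts, StringTie, DESeq2 and build GRCm39, without versions. Samples were grouped by their labels. The authors deposited 1 DESeq2 table per diet, with no values of single mice, and 0 columns of other samples.

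The deposited signal of a gene averages the counts of the 6 mice of a table after division by size factors. The group means that the authors deposited are on a log2 scale. From the values, each is log2(log2(CPM) + 1), given to 2 decimals and 0 where the CPM is 1 or less, and it was read back to CPM. For 99.6% of 15077 genes on chow and 99.7% of 14997 on the HFD from 2 CPM up, the mean of both groups read back was within 0.1 log2 of the mean count on the same scale. They are means on a log scale: on chow, *Ttr* read back minus its mean count was -4.10 log2, while the 5 genes described were between -0.035 and 0.001. Genes at 0 in a group, 86 on chow and 65 on the HFD, got no ratio.

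The tables also hold the authors' comparison of genotypes, as log2 fold changes, standard errors, statistics and p-values. These were not used, so no p-value and no error between mice is given. Ratios are of the authors' group means, within a table, with bounds of 0.005 on the deposited values for rounding and a 95% Poisson interval for counting. The count behind a group mean was taken as 3 mice times the mean count, split between the groups by their levels for the 5 members and evenly for other genes. Genes were counted past a log2 ratio of 0.2. The step that reads back and its rounding bounds were tested on simulated data written on the same scale, which does not test the scale itself.

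Genes named were the 5 members, each gene of 5 lists past 0.2 on either diet, the 3 nearest to *Pmch* and to *Hcrt*, and 7 marker lists. *Cartpt*, *Pdyn*, *Gnaq* and the markers singled out were named after their values were seen. Members, lists and tests were chosen with earlier results of these data known. Exon lengths were from GENCODE transcripts of build GRCm38, matched by Ensembl identifier for 99.8% of 17161 genes, and promoters from RefSeq. Python 3.11.15, numpy 2.4.6, pandas 2.3.3 and matplotlib 3.10.9 were used. Alternatives were other scalings, an added count, protein-coding genes alone, other fold limits, a filter on the mean and another length.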

Additional observations from a re-analysis of the deposited data

How the results depend on the processing

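The 15 ratios and differences of ratios of the 5 genes were recomputed centred on the median gene, rescaled to the group sum, with 1 normalized count added, and over protein-coding genes alone. These could hardly move the values: the median ratio of all genes was 0.00 on both diets, so centring changed nothing, and rescaling shifts every gene alike. The largest shift of 60 values was 0.0025 log2, which says little about stability. Past a limit of 0.1 in place of 0.2, 1 of 5 members was higher and 1 lower on chow, and 4 were higher on the HFD. Of the genes of the 5 lists, 2 were higher and 8 lower on chow at 0.2, 10 and 20 at 0.1, and 0 and 4 at 0.3. On the HFD 9 were higher and 4 lower at 0.2, 22 and 10 at 0.1, and 4 and 3 at 0.3. The share of all genes past 0.1 or 0.3 was not counted. The counts of members and list genes at these limits thus show only their dependence on the limit. A mean of at least 100 on both diets took the HFD count of higher genes from 9 to 6, without *Qrfp*, *Lepr* and *Itpr3*, and the chow count of lower genes from 8 to 7, and left the others as they were. The longest transcript as the length moved 12 of 20 levels per length, those of *Hcrt*, *Hcrtr1* and *Hcrtr2*, by construction. No paired analysis was possible because the values are means over the mice of a group, and no mouse could be left out for the same reason. Depth limits the receptor genes, with 142 to 332 mean counts, more than the precursors.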
